A study of Mus musculus with 7 samples.

Results

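Small nucleolar RNAs (snoRNAs), small Cajal body RNAs (scaRNAs) and spliceosomal small nuclear RNAs were examined in whole lung of wild type mice and of mice carrying a knockout of Scgb3a2, which encodes a small secreted protein produced for the most part in club cells of the airways. The genes were taken by name, as entries whose symbol begins with Snora, Snord, Scarna or Rnu followed by a digit, and kept where their counts summed to 10 or more over the 7 libraries. The genes were thus chosen by name and by their summed counts, and they were singled out for study with their shares per library and their genotype comparison known, so both are given as descriptions of these libraries. This gave 56 of the 67 matching entries, out of 28828 entries in the whole table. All libraries came from lung of the C57BL/6 strain, 4 wild type (WT2, WT3, WT4 and WT6) and 3 knockout (KO3, KO4 and KO5), named here by genotype and the number in their titles. Sex, age, the structure of the knockout allele and whether each library is a separate mouse are stated nowhere in the labels. The p-values thus reflect how far these libraries vary, and that variation may be technical. Read counts per gene were deposited, with totals of 13071262 to 16480006 per library.

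SnoRNAs work in the nucleolus, where they guide the chemical modification of ribosomal RNA and in some cases its cutting. Those with C and D boxes (Snord) hold the methyltransferase fibrillarin and direct methylation of the ribose. Those with H and ACA boxes (Snora) hold dyskerin and direct the change of uridine to pseudouridine. ScaRNAs (Scarna) carry the same boxes but gather in Cajal bodies, where they guide the modification of the spliceosomal RNAs. The spliceosomal RNAs (most Rnu entries) form the core of the particles that remove introns. In mice most snoRNAs are cut out of introns of other genes, and mature snoRNAs carry no poly(A) tail.

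Short boxes mark the RNAs on which the results turn, and their annotated sequences are shown for that reason (GENCODE M21, GRCm38, 5' to 3' as DNA letters). In the first group, of RNAs with the C/D boxes, capitals mark the C box TGATGA and the last CTGA, the D box. For Scarna2 the last 150 bases are shown (chr3:108554338-108554487, minus strand).
Scarna2: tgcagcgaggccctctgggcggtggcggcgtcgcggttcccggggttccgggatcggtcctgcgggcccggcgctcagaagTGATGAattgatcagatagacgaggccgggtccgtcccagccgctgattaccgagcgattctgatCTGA
Snord17: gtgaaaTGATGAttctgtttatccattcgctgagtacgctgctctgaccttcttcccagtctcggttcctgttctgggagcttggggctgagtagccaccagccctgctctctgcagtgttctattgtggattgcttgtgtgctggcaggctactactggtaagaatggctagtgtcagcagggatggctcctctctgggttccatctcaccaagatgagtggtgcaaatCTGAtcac
Scarna6: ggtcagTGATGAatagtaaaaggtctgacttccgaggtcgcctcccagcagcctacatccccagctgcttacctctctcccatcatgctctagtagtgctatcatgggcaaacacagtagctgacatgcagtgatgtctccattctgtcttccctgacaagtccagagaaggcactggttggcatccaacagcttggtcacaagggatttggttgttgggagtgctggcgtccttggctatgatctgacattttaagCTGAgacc
Scarna9: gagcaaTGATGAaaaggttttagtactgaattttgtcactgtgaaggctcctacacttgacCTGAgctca
Snord104: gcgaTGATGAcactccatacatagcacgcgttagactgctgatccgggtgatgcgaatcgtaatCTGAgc
In the second group, capitals mark ACA directly before the last 3 bases, the ACA box.
Scarna13: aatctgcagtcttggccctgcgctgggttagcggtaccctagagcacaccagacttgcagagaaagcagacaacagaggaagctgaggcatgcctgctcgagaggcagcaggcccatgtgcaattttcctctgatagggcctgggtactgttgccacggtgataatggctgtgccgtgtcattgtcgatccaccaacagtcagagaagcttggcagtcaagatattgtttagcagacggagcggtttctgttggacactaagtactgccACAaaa
Snora23: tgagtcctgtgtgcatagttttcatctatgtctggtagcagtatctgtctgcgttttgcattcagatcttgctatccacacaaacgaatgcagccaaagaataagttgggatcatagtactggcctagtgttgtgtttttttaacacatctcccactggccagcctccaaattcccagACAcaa
Snora30: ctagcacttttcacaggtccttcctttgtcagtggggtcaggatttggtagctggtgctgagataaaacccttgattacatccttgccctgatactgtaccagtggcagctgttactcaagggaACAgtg

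Scarna2 lies at chr3:108554338-108554751 on the minus strand and in no other annotated gene of that strand. Snord17 (chr2:144265979-144266216, minus strand) lies in an intron of the sorting nexin gene Snx5, Scarna13 (chr12:105031075-105031349, minus strand) in an intron of the long noncoding gene Snhg10, and Scarna6 (chr1:87784556-87784820, plus strand) in an intron of the autophagy gene Atg16l1. Scarna9 (chr9:15326264-15326333, minus strand) is annotated in an intron of the centrosomal gene Cep295. Snord104 (chr11:106500993-106501062, plus strand) lies in no annotated gene of its strand. Snora23 (chr7:110046364-110046547, plus strand) lies in an intron of the nuclear import gene Ipo7, and Snora30 (chr7:127527874-127528003, plus strand) in an intron of the chromatin remodelling gene Srcap.

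The boxes followed the names of the classes. TGATGA was found on the RNA strand of 23 of the 30 C/D box RNAs (76.7%) and of 4 of the 6 scaRNAs, against 0 of the 16 H/ACA box RNAs. CTGA stood within the last 12 bases of 25 of 30 C/D box RNAs (83.3%) and 1 of 16 H/ACA box RNAs. ACA stood before the last 3 bases of 14 of 16 H/ACA box RNAs (87.5%) and of no C/D box RNA. In windows of 110 bases, the median length of the 56 RNAs, from the middle of 53477 coding transcripts these shares were 5.52%, 5.6% and 1.92%. The other strand was not searched, since the boxes act in the RNA, and TGATGA and CTGA can overlap.

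The 56 genes were 30 C/D box RNAs, among them the U73-family entry Rnu73b, 16 H/ACA box RNAs, 6 scaRNAs and 4 spliceosomal RNAs. In the annotation 44 of them lay in an intron and 2 overlapped an exon in part, and 10 lay outside any other gene of their strand. The 46 within a gene had 42 different hosts. A ribosomal protein gene hosted 12 and a translation factor gene (names beginning Eef or Eif) hosted 4. Several share a host, among them Snord53 and Snord92 in Wdr43, Snord43 and Snord83b in Rpl3, and Snord73a and Rnu73b in Rps3a1. Identical annotated copies existed for Rnu1a1 (6 others), Rnu2-10 (3) and Snora19 (1), and the labels do not say how reads were shared among copies.

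Most of these RNAs were scarcely counted. Together they held 15837 counts, of which the 3 most abundant, Scarna2 (6018), Snord17 (4748) and Scarna13 (2135), made up 81.5%. The median RNA had 34.5 counts over all libraries, 44 of 56 had fewer than 100, and 19 had a library with 0. A count of 0 allows up to 3 counts, or 0.18 to 0.222 CPM (counts scaled to a common library size after TMM normalization), and covers counting error only. At the limit of 10 counts, Snord32a, Snora69, Snord59a and Snora34 stood just inside with 10 each, and Snord111 and Snord49b just outside with 8 each, followed by Scarna8 and Snord87 with 7 each.

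The 4 RNAs longer than 200 nt (Scarna2, 414 nt; Scarna13, 275; Scarna6, 265; Snord17, 238) held 84.4% of the counts. Among the shorter ones counts were not measured against length. The 70-nt Snord104 had 206 and the 184-nt Snora23 had 202. The 191-nt Rnu2-10 had 40 and the 164-nt Rnu1a1 had 23, but both have identical annotated copies, and how reads were shared among these is not stated. By class, scaRNAs held 55.3%, C/D box RNAs 37.9%, H/ACA box RNAs 6.17% and spliceosomal RNAs 0.65%. Divided by length, the mean level over the 7 libraries was 193 CPM per kb for Snord17, 141 for Scarna2 and 73.4 for Scarna13. Next came Snord104 with 28.1, Scarna6 with 17.0 and Scarna9 with 15.8 CPM per kb, so that the 70-nt Snord104 and Scarna9 ranked with far longer RNAs. The part that read length and size selection play in this order was not tested.

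**Figure D1:**
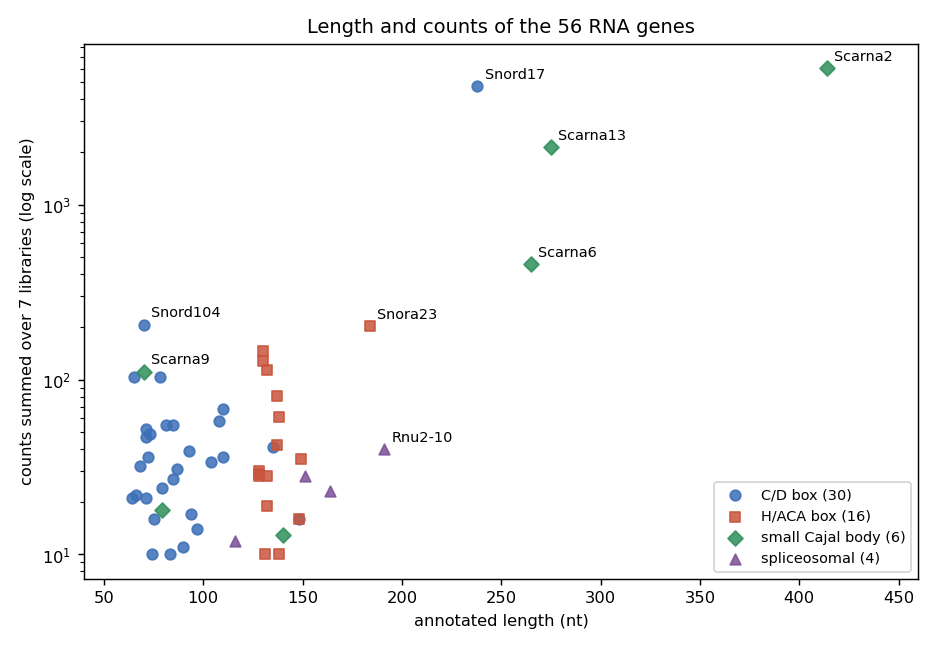
Annotated length in nucleotides (x) and counts summed over the 7 libraries (y, log scale) of the 56 RNA genes, with 1 point per gene and colour and shape giving the class. The 4 RNAs longer than 200 nt lie between 458 and 6018 counts, above the 52 shorter ones, of which Snord104 is highest at 206.

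The samples were checked before the genotypes were compared. Scgb3a2 had 2636 to 4204 counts in wild type and 19 to 37 in knockout libraries, as labelled. All 11 lung epithelium markers and 6 endothelium markers were measured, with summed levels of 20045 to 32687 and 2006 to 2830 CPM. WT6 and KO5 stood apart from the other 5 libraries on the leading principal component of all tested genes (36.3 and 49.98 against -30.5 to -5.59, 37.5% of the variance), across genotypes. The labels do not tie these 2 libraries together, and for the tested RNAs the log2 fold change is also given for the other 5 libraries. In this pair the summed level was lowest for the epithelium markers (23421 and 20045 CPM against 27533 to 32687) and for the endothelium markers (2299 and 2006 against 2542 to 2830). Single markers were mixed: both libraries lay below the other 5 for 5 of 11 epithelium markers, among them Scgb1a1 and Sftpc, and for 3 of 6 endothelium markers, and above them for Hopx. Plasma and B cell markers summed to 264 to 301 CPM in wild type and 447 to 2124 in knockout libraries, highest in KO5. Heart muscle markers summed to 436 to 952 CPM in wild type, highest in WT6, and 423 to 510 in knockout libraries. Neuron markers summed to 39.8 and 38.7 CPM in WT6 and KO5 against 48.0 to 52.0. The part of these differences in the RNA values was not tested.

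Scarna2, which guides methylation of the U2 spliceosomal RNA, had 770, 669, 679 and 1258 counts in WT2, WT3, WT4 and WT6, against 741, 646 and 1255 in KO3, KO4 and KO5. In CPM this was 46.3, 42.6, 50.2 and 88.3 against 49.99, 41.0 and 90.7. WT6 and KO5 were the high libraries, the other 5 lay between 41.0 and 50.2, and the genotypes overlapped. The means were 56.9 ± 21.2 CPM in wild type (SD, n = 4) and 60.6 ± 26.5 in knockout lung (SD, n = 3). The log2 fold change was 0.09 ± 0.34 (SE) with a 95% interval of -0.71 to 0.89. With WT6 and KO5 left out, the estimate from the other 5 was -0.02 ± 0.12, and KO5 exceeded WT6 by 0.04 on the log2 scale. In bulk tissue, fewer cells of a type and less RNA per cell cannot be told apart, here and in every value that follows.

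Snord17, a C/D box guide for large subunit ribosomal RNA, had 38.7, 41.2, 40.3 and 59.3 CPM in WT2, WT3, WT4 and WT6, and 43.6, 30.6 and 67.9 in KO3, KO4 and KO5. KO5 and WT6 were again highest, and KO4 was lowest. Its log2 fold change was 0.08 ± 0.26 (SE), with a 95% interval of -0.50 to 0.66, the narrowest of all tested RNAs of the group. It was -0.11 ± 0.14 in the 5 libraries without the pair. Scarna2 and Snord17 stayed in a similar ratio, from 1.04 to 1.49 Scarna2 counts per Snord17 count.

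Scarna13, also called U93, is an H/ACA box scaRNA that guides pseudouridine formation in spliceosomal RNA, and it went the other way. It had 24.0, 26.8, 25.7 and 8.77 CPM in WT2, WT3, WT4 and WT6, and 23.9, 22.4 and 9.76 in KO3, KO4 and KO5. WT6 and KO5 were the low libraries, and the other 5 lay between 22.4 and 26.8. There were 10.1 and 9.30 Scarna2 counts per Scarna13 count in WT6 and KO5, against 1.59 to 2.09 in the other 5. The genotype difference was -0.19 ± 0.44 (log2, SE), with an interval of -1.21 to 0.83, and -0.14 ± 0.13 in the 5 libraries. These 2 scaRNAs therefore differed more between libraries of 1 genotype than between genotypes.

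Scarna6 (U88), which carries both kinds of box and guides modification of the U5 spliceosomal RNA, had 2.17, 2.87, 2.66 and 10.7 CPM in WT2, WT3, WT4 and WT6, and 3.44, 1.78 and 7.95 in KO3, KO4 and KO5. Scarna9, a shorter RNA, had 8, 7, 10 and 38 counts in the wild type and 3, 5 and 40 counts in the knockout libraries in the same order. Both were high in WT6 and KO5 and overlapped between genotypes. Scarna9 spanned 14.3-fold from KO3 to KO5 in CPM, the widest among the RNAs tested in the main comparison. Its log2 fold change was 0.06 ± 0.96 (SE) with an interval of -2.14 to 2.26. Without KO5 it was -1.998 at an unadjusted edgeR p of 0.0428 and an adjusted p of 0.9998, and in the 5 libraries without the pair it was -1.04 ± 0.67. For Scarna6 the log2 fold change was -0.07 with an interval of -1.71 to 1.58, and 0.03 ± 0.33 in the 5 libraries. Of the remaining scaRNAs, Scarna17 and Scarna3a had 18 and 13 counts in all.

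**Figure D2:**
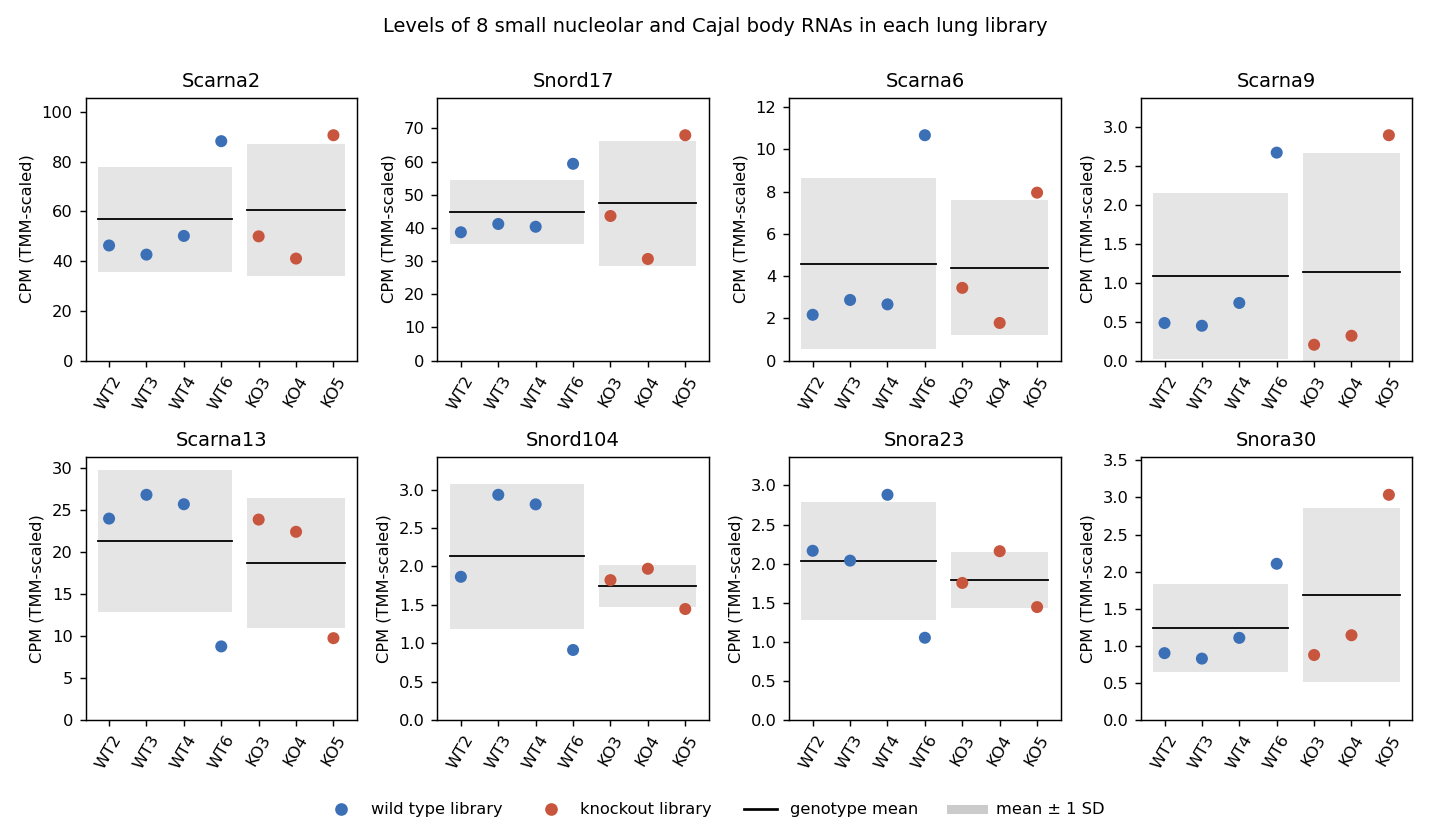
Level in CPM (y, from 0) of 8 RNAs in each library (x), with points coloured by genotype, lines at the genotype means and grey bands of 1 SD (n = 4 and 3). Scarna2, Snord17, Scarna6, Scarna9 and Snora30 were highest in WT6 and KO5, and Scarna13, Snord104 and Snora23 lowest there.

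Among the shorter C/D box RNAs, Snord104 had 1.86, 2.93, 2.81 and 0.9125 CPM in the wild type libraries WT2, WT3, WT4 and WT6, and 1.82, 1.97 and 1.45 in KO3, KO4 and KO5. WT6 and KO5 were lowest, as for Scarna13. The log2 fold change was -0.28 ± 0.37 (SE), and -0.41 ± 0.32 in the other 5 libraries. Snord98 (0.828 to 1.19 CPM in wild type, 0.607 to 1.30 in knockout), Snord8 (0.443 to 0.842 and 0.445 to 0.867) and Snord53 (0.481 to 1.82 and 0.445 to 1.48) overlapped between genotypes. Their log2 fold changes were -0.12, 0.02 and 0.22 in all libraries and -0.32, -0.07 and 0.55 in the other 5. Snord43, in an intron of the ribosomal protein gene Rpl3, had the smallest p of the tested RNAs. Its counts were 4, 13, 13 and 9 in wild type and 9, 3 and 7 in knockout libraries, its log2 fold change -0.60 ± 0.55 (SE), its unadjusted p 0.299 and its adjusted p 0.99985 in edgeR's quasi-likelihood test. In the other 5 libraries it was -0.73 ± 0.69 (log2, SE).

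A pair of C/D box RNAs that act on ribosomal RNA in other ways than guiding its methylation was counted at low depth. Snord118 (U8), needed for maturation of large subunit RNA, had 1, 1, 6 and 14 counts in WT2, WT3, WT4 and WT6 and 4, 4 and 11 in KO3, KO4 and KO5. It was highest in WT6 and KO5. Snord13 (U13), which acts on small subunit RNA, had 3 to 5 counts in wild type and 5 to 6 in knockout libraries and showed no such difference between libraries.

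Of the H/ACA box RNAs, Snora23 had 2.17, 2.04, 2.88 and 1.05 CPM in WT2, WT3, WT4 and WT6, and 1.75, 2.16 and 1.45 in KO3, KO4 and KO5, with WT6 and KO5 lowest. Snora30 went the other way, with 0.902, 0.828, 1.11 and 2.11 CPM in wild type and 0.877, 1.14 and 3.04 in knockout libraries. The log2 fold changes were -0.18 ± 0.34 and 0.44 ± 0.48 (SE), and -0.26 ± 0.32 and 0.11 ± 0.44 in the other 5 libraries. Snora31, in an intron of the translationally controlled gene Tpt1, was at 0.983 to 2.10 CPM in wild type and 0.762 to 1.42 in knockout lung. Snora17 lay at 0.637 to 1.48 CPM in wild type and 1.08 to 1.16 CPM in knockout lung. Snora2b lay at 0.481 to 1.05 CPM in wild type and 0.202 to 1.14 CPM in knockout lung. Snora2b overlaps in part an exon of its host Kansl2, which lay at 24.0 to 29.3 CPM. How reads were assigned there is not stated. For Snora31, Snora17 and Snora2b the log2 fold changes were -0.37, 0.09 and 0.03 in all libraries and -0.42, 0.05 and 0.015 in the other 5. All 5 overlapped between genotypes.

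The spliceosomal RNAs, which are among the most abundant RNAs of the nucleus, were close to the counting limit in these libraries. Rnu2-10 (U2) had 6, 3, 3 and 11 counts in WT2, WT3, WT4 and WT6, and 5, 1 and 11 in KO3, KO4 and KO5. Rnu12 (U12, of the minor spliceosome) had 2, 2, 2 and 9 counts and 7, 0 and 6. Rnu1a1 (U1) had 4, 6, 1 and 8 counts and 0, 0 and 4, with the smallest p of all 56 genes (0.12 unadjusted, adjusted p = 0.99999, edgeR on genes with 10 or more counts). Rnu5g (U5) had 2, 0, 0 and 5 counts and 3, 1 and 1. At 103 counts in all, a genotype difference in these RNAs was not detectable at this depth, and reads of their other copies are not analysed here.

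Over the whole group no gene passed the comparison of knockout with wild type. In edgeR's quasi-likelihood test 15 of the 56 passed the filter on low counts, and 0 were called at an adjusted p under 0.05, against 0.0353% of the 19832 genes tested (0.0252% higher and 0.0101% lower in knockout). None had an unadjusted p under 0.05 (2.87% of all genes tested), and DESeq2 called 0 of the 15 (0.237% of all genes it tested), also with 0 at an unadjusted p under 0.05. With every gene of 10 or more counts tested, 0 of the 56 were called (0.0268% of 26120 genes), and 0 had an unadjusted p under 0.05 (3.26%). In 0 of 56 did the genotypes not overlap, against 4.0% of those genes and 3.72% of the 19832. The log2 fold changes of the 15 ran from -0.60 to 0.44 with a median of 0.02, beside -0.0068 over all genes tested, and the median was -0.11 in the 5 libraries without the pair. The 95% intervals reached from 0.58 to 2.20 to each side of the estimate, so that changes within those bounds cannot be told from none.

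By class, in the test of all 56, 19 of 30 C/D box RNAs lay above 0 and 11 below (median log2 fold change 0.07). H/ACA box RNAs split 8 and 8 (-0.05), scaRNAs 4 and 2 (0.07) and spliceosomal RNAs 2 and 2 (-0.02). These class values come from all 7 libraries and were not computed without the pair. The 10 with the smallest p were Rnu1a1 (log2 fold change -1.70), Snord89 (0.91), Snord83b (-1.23), Snord123 (0.73), Snord43 (-0.60), Snora20 (0.60), Snora19 (-1.01), Snord55 (0.64), Scarna17 (0.72) and Snora31 (-0.37). Snord43 had 58 counts and Snora31 127, and the other 8 had 17 to 47. Their unadjusted p ran from 0.12 to 0.352. All genes of that test split 12606 and 13514, with a median of -0.0073.

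**Figure D3:**
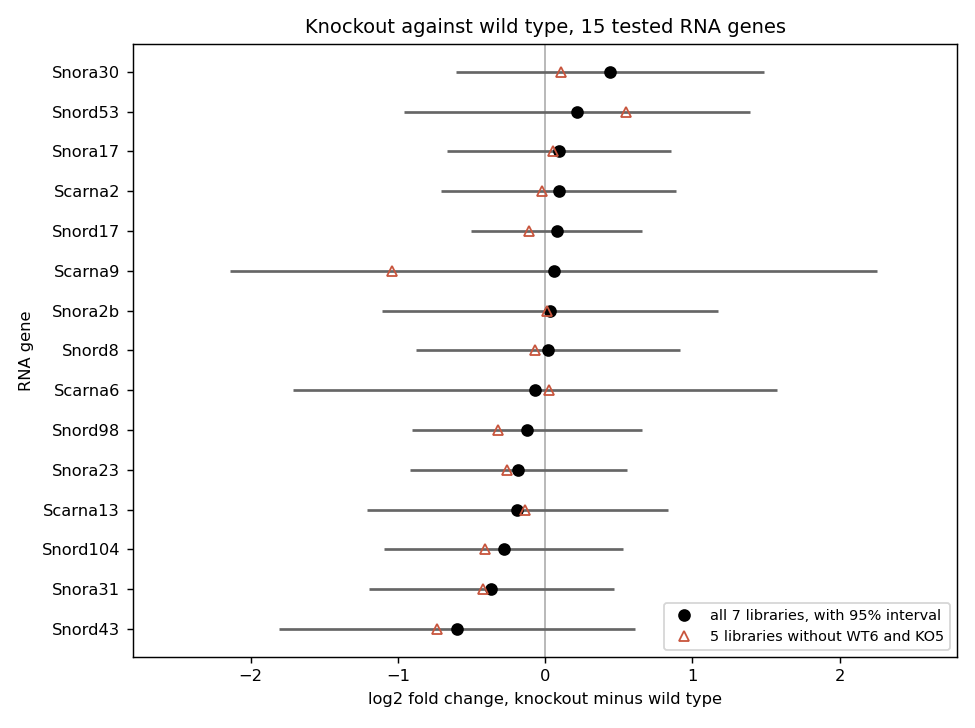
Log2 fold change of knockout over wild type (x) for the 15 RNA genes that passed the filter (y), with black points and lines for the estimate and its 95% interval from all 7 libraries and open triangles for the 5 libraries without WT6 and KO5. Every interval spans 0.

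For several of these RNAs, such as Scarna2 and Scarna13, the difference between libraries was larger than the difference between genotypes. Both WT6 and KO5 lay above the other 5 libraries in 7 of the 15 tested RNAs (46.7%, against 16.7% of all genes tested), namely Scarna2, Snord17, Scarna6, Snora30, Scarna9, Snord98 and Snord8. Both lay below in 3 (20.0%, against 16.9% of all genes), namely Scarna13, Snord104 and Snora23. For Snora31, Snora17, Snord53, Snora2b and Snord43 the pair lay neither above nor below the other 5. The pair was singled out from all genes of these same libraries, and the RNAs share the libraries and their depth, so these counts are a description. Over all 56 the numbers were 17 above and 4 below, and the matching share over all genes of 10 or more counts was not computed. Several of the 17 rest on few counts, such as Snord88c (4 in WT6 and 5 in KO5) and Snord32a (3 and 4). The spread of counts around their expectation was measured by an index of dispersion, which is near 1 for counting error alone. It was 116 for Scarna2, 53.8 for Snord17, 40.6 for Scarna13, 38.7 for Scarna6 and 18.1 for Scarna9. Of all genes tested, 1.86%, 4.65%, 6.2%, 6.52% and 13.5% had a higher index. For a given spread the index rises with counts, so ranks among all genes depend on depth as well. For Snora30, Snord104 and Snora23 it was 7.11, 3.74 and 2.49, and 30.8%, 50.4% and 66.1% of all genes tested had a higher index. In contrast, Snora17 (0.86), Snord98 (0.79) and Snord8 (0.64) did not exceed counting error. Snord98 and Snord8 are thus counted among the 7 on differences within counting error. An index above 2 was found for 26 of the 56. Of the 56, 44 had fewer than 100 counts, and the matching share over genes of that depth was not computed. The median index was 3.78 over all genes tested and 1.99 over the 2523 genes with 100 to 210 counts. Scarna9, Snora30, Snord104 and Snora23 fall in that range.

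As a share of all counts the 56 genes made up 0.0131%, 0.0133%, 0.0136% and 0.0206% in WT2, WT3, WT4 and WT6, and 0.0139%, 0.0115% and 0.0218% in KO3, KO4 and KO5. On average this was 0.0152% ± 0.00364 in wild type (SD, n = 4) and 0.0157% ± 0.00543 in knockout lung (SD, n = 3). WT6 and KO5 held the highest shares, and the genotypes overlapped. Without the 3 most abundant RNAs the same libraries stood out, with 0.00424% and 0.00402% against 0.00212% to 0.00257%.

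Of 5 other short structured RNAs tested, 4 differed in the same libraries. Rn7sk, the 7SK RNA that holds back transcription elongation, made up 0.815% and 0.848% of counts in WT6 and KO5 against 1.15% to 1.35% in the other 5. The 7S RNA entries Rn7s1, Rn7s2 and Rn7s6, copies of the RNA of the signal recognition particle, summed to 0.00845% and 0.00933% against 0.000832% to 0.00233%. The vault RNA Vaultrc5 did not stand apart, with 0.632 and 0.65 CPM in the pair and 0.405 to 0.886 in the others. Malat1, a long nuclear RNA, made up 1.92% to 2.21% in all libraries, and mitochondrial transcripts 2.36% and 2.23% in the pair against 2.20% to 3.64%. Mesothelium markers summed to 318 and 307 CPM in WT6 and KO5 and 196 to 293 CPM in the others, with none of the 7 at 0 in all libraries. Both libraries of the pair lay above the other 5 for 5 of the 7, among them Msln (55.2 and 81.95 CPM against 12.3 to 29.1) and Upk3b (42.3 and 33.9 against 8.70 to 16.7), whereas Krt19, the most abundant in every library, did not (93.8 and 88.4 against 88.6 to 176.7). The part of these differences in the RNA values was not tested.

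**Figure D4:**
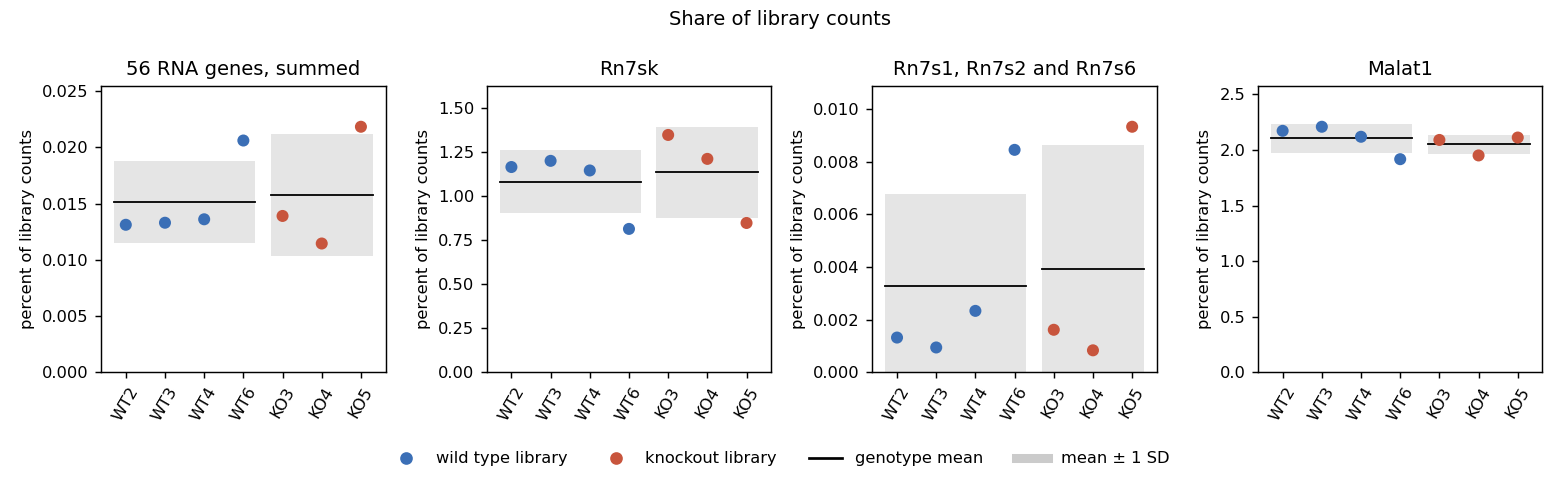
Percent of library counts (y, from 0) held by the 56 RNA genes, by Rn7sk, by the 3 7S RNA entries and by Malat1 in each library (x), with lines at genotype means and grey bands of 1 SD (n = 4 and 3). WT6 and KO5 are highest for the 56 RNA genes and the 7S entries and lowest for Rn7sk.

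Host genes were compared with the RNAs inside them, since a snoRNA is cut from the intron of its host's transcript. The hosts include Tex14, which holds the spliceosomal RNA Rnu1a1, to which this reason does not extend. None of the 40 host genes tested was called (edgeR, against 0.0353% of all genes), 1 had an unadjusted p under 0.05 (2.87% of all genes), and their median log2 fold change was -0.00054. In the 5 libraries without the pair the median was -0.016. There 0 were called and 0 had an unadjusted edgeR p under 0.05, against 13 and 661 of all 19832 genes. Some hosts also stood apart in the pair, as some of all genes did. Of 41 hosts, 9 had both WT6 and KO5 above the other 5 libraries and 11 had both below. Over all genes tested, both lay above in 16.7% and below in 16.9%. The 41 include AA465934, which was not among the genes tested, and the counts are a description. Rpl39, for instance, was higher in both (69.3 and 68.1 CPM), and Eif3a was lower in both (231 and 242 CPM). Cep295 lay at 39.6 and 42.6 CPM in WT6 and KO5 and at 42.3 to 59.1 in the other 5, whereas Scarna9 within it was highest in that pair. There were 6.74 and 6.79 Scarna9 counts per 100 Cep295 counts in the pair, against 0.417 to 1.55. Atg16l1, host of Scarna6, spanned 57.2 to 66.7 CPM over all libraries, and the Scarna6 counts per 100 of Atg16l1 were 16.5 and 11.9 in the pair against 3.11 to 5.56. Ipo7 was highest in WT6 and KO5 (167 and 164 CPM against 134 to 158), and Snora23 within it was lowest.

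Snx5, host of Snord17, was highest in the pair as well, at 81.1 and 87.8 CPM against 69.4 to 78.96, while Snord17 was 59.3 and 67.9 against 30.6 to 43.6. Srcap, host of Snora30, stayed between 23.1 and 30.6 CPM. Snhg10 was the host with an unadjusted p under 0.05 and was counted far less than the Scarna13 in its intron. It had 16, 19, 16 and 13 counts in WT2, WT3, WT4 and WT6 and 6, 14 and 4 in KO3, KO4 and KO5, or 1.07 ± 0.15 CPM in wild type (SD, n = 4) and 0.528 ± 0.318 in knockout lung (SD, n = 3). Its log2 fold change was -0.98 ± 0.42 (SE), and it did not pass (adjusted p = 0.99985, edgeR).

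**Figure D5:**
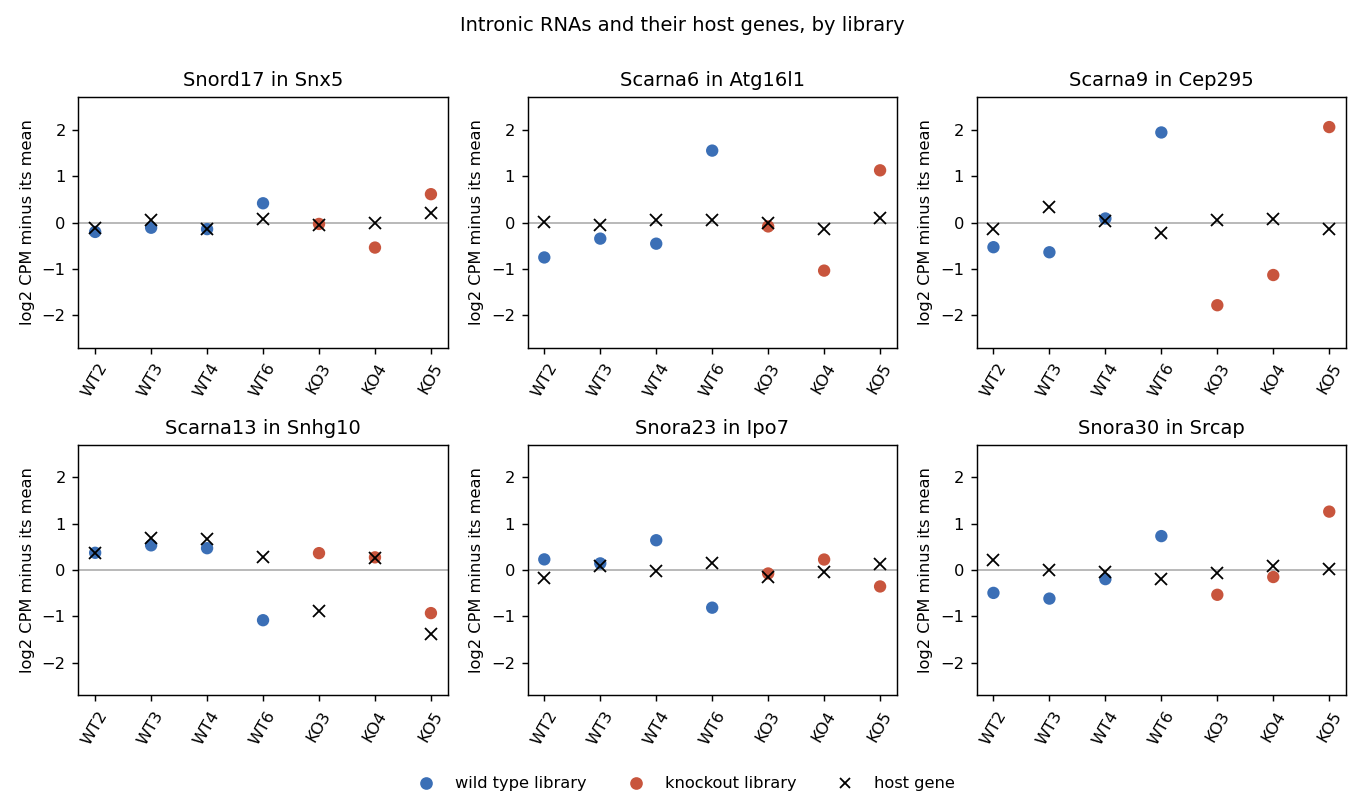
Log2 CPM of 6 intronic RNAs (coloured points) and of their host genes (crosses), each minus its own mean over the 7 libraries (y), by library (x). Host genes other than Snhg10 stay close to 0 in every library, while in WT6 and KO5 the RNAs inside them lie farther from 0 than the hosts do.

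The proteins that bind, build or use these RNAs were counted from 10 lists with 151 genes, of which 147 were tested. None was called (0 higher and 0 lower by edgeR, and 0 by DESeq2, against 0.0353% and 0.237% of all genes). In edgeR 1 had an unadjusted p under 0.05 (2.87% of all genes), and 144 lay within 0.3 of 0 on the log2 scale. List medians ran from -0.05 to 0.02, beside -0.0068 over all genes tested. In the 5 libraries without the pair 0 were called and 4 had an unadjusted edgeR p under 0.05. Over all 19832 genes these numbers were 13 and 661. The median over the 147 was -0.03 in these 5 libraries. In the C/D box particle, the methyltransferase Fbl had 17.6 ± 1.85 CPM in wild type (SD, n = 4) and 18.4 ± 0.78 in knockout lung (SD, n = 3). Its partners Nop56, Nop58 and Snu13 had log2 fold changes of -0.04, -0.04 and -0.0024. In the H/ACA box particle, the pseudouridine synthase Dkc1 had 19.8 ± 1.82 and 17.7 ± 1.67 CPM, and Nhp2, Nop10 and Gar1 had log2 fold changes of -0.26, 0.20 and 0.07.

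Further out in the pathway the gene with the smallest p of each list was taken. Rrp9, which binds the U3 RNA of the small subunit processome, was the gene with an unadjusted p under 0.05, at 13.96 ± 1.75 CPM in wild type and 10.7 ± 1.7 in knockout lung (log2 fold change -0.38). Its unadjusted p was 0.0358 and its adjusted p 0.99985 in edgeR's quasi-likelihood test. The other values were -0.39 for the assembly factor Znhit6, -0.23 for Lsm7 of the LSm ring, -0.29 for the U2 protein Snrpa1 and -0.21 for Sart1 of the tri-snRNP. Pdcd7 of the minor spliceosome had 0.12, the Integrator subunit Ints4 -0.09 and Wdr77 of the methylosome -0.40. None of these passed in edgeR.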

How the data were processed

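Total RNA of lung tissue was extracted with Trizol and made into libraries with an Illumina protocol, per the labels' protocols; the labels state no removal of ribosomal RNA, strandedness or read length. The authors deposited raw read counts per gene for 7 libraries. STAR, DESeq2 and build mm10 are named in the submitters' processing notes, without role; for the counting program, the annotation and strand use, nothing is given in the sources here, and counts of genes that overlap on either strand or have copies are uncertain. Genotypes were compared with edgeR 4.0.16 (R 4.3.3) on all 7 libraries, with TMM scaling, its default filter on low counts, the robust quasi-likelihood test and Benjamini-Hochberg adjustment over all genes tested (threshold 0.05), and the procedure was tested on simulated data. Standard errors came from the F statistic. Positions, hosts and sequences came from GENCODE M21.

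The RNA genes and gene lists were chosen with earlier results of these data known. Named were the 12 RNAs of highest mean level, the 10 of smallest p, the 2 highest of each class, those at the limit of 10 counts, all spliceosomal RNAs, the hosts, the core proteins and the smallest p of each protein list. Snord118, Snord13, the printed sequences and the ratios were chosen after values were seen. Alternatives were library totals, DESeq2 1.42.0, other filters, leaving out libraries, a replicate block and a term for WT6 and KO5.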

Additional observations from a re-analysis of the deposited data

Results flagged for a closer look

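In the wild type group, 12 of 55 quantities had 1 library far from the other 3 (Dixon's criterion for 4 samples), and that library was WT6 each time. Chance gives about 1 in 20 for independent quantities, but these share their libraries and overlap. Scarna2 and Snord17, for instance, also enter the summed shares below. WT6 also stood apart over all genes, so 12 of 55 is a description and cannot be set against chance. The 3 knockout libraries are too few for this criterion. Among the guide RNAs, WT6 was high for Scarna2 (88.3 CPM, against 42.6 to 50.2 in the other 3), Snord17 (59.3 against 38.7 to 41.2), Scarna6 (10.7 against 2.17 to 2.87) and Scarna9 (2.67 against 0.446 to 0.739). It was low for Scarna13 (8.77 CPM against 24.0 to 26.8). Rnu12 stood at 0.632 CPM in WT6 and 0.12 to 0.148 in the others, which is 9 counts against 2 in each.

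The summed shares behaved alike. All 56 RNA genes held 0.0206% of counts in WT6 against 0.0131% to 0.0136%, scaRNAs 0.0116% against 0.00709% to 0.00762%, and C/D box RNAs 0.00776% against 0.00483% to 0.00524%. Of the other structured RNAs, Rn7s1 (7.23 CPM against 1.98 to 2.66) and Rn7s2 (33.8 against 3.06 to 7.24) were high in WT6. Rn7sk was low there, at 0.815% of counts against 1.15% to 1.20%. KO5 lay on the same side as WT6 in each of these quantities, although for Rnu12 KO3 (7 counts) was as high as KO5 (6). The cause was not tested.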

How the results depend on the processing

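None of the 15 tested RNA genes and none of the 147 protein genes was called under any alternative run. The number of genes called over the whole table was 7, and it was 47 with DESeq2, 29 when the pair of WT6 and KO5 had its own term, 13 in the other 5 libraries, and 3 to 28 when 1 library was left out (28 without KO3, 4 without KO4, and 3 without WT2, WT3 or WT4). The replicate block gave 140 calls, but only the numbers 3 and 4 occur in both genotypes and nothing ties same-numbered libraries together. Their deviations from the group means correlated at 0.24 (WT3 and KO3) and 0.20 (WT4 and KO4), close to the crossed values of 0.24 and 0.22. The cause of these differences was not tested. The median log2 fold change of the RNA genes was 0.02, and -0.18 with the block, -0.07 with the term, -0.11 in 5 libraries and -0.27 to 0.16 with 1 library left out. The difference in summed share was 0.000572 percentage points, and -0.000664 in 5 libraries and -0.00248 to 0.00271 with 1 left out.

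Directions of single genes were less stable: 86 of 546 log2 fold changes reversed, among them values of 12 of the 15 tested RNA genes. In 5 libraries the reversed values were Rn7s1 -0.64, Rn7s6 -0.79, Scarna2 -0.022, Scarna6 0.027, Scarna9 -1.04, Snord17 -0.11, Snord8 -0.068, Snu13 0.13 and Srcap -0.036. With the replicate block they were Fbl -0.021, Rn7s1 -0.73, Rn7s6 -0.85, Scarna2 -0.028, Scarna9 -1.16, Snora2b -0.32, Snord17 -0.15, Snord8 -0.030, Snu13 0.048 and Tpt1 -0.085. Rn7s6 passed the threshold there (adjusted p = 0.00495, edgeR), the only such value, and its adjusted p was above 0.999 under every other alternative. With the term they were Cep295 0.010, Rn7s1 -0.31, Rn7s6 -0.48, Scarna2 -0.0066, Scarna9 -0.40, Snora2b -0.011, Snord17 -0.018 and Snord8 -0.034. Library totals reversed Cep295 (0.0018) and Snu13 (0.0072), and the filter of 10 counts reversed Rn7s6 (-0.0063).

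With 1 library left out, the ranges that crossed 0 were -0.32 to 0.38 for Scarna2, -0.27 to 0.31 for Snord17, -0.45 to 0.12 for Scarna13, -0.81 to 0.77 for Scarna6, -1.998 to 1.01 for Scarna9, -0.088 to 0.29 for Snora17, -0.39 to 0.023 for Snora23, -0.35 to 0.49 for Snora2b, -0.28 to 0.82 for Snora30, -0.069 to 0.73 for Snord53, -0.21 to 0.24 for Snord8 and -0.40 to 0.12 for Snord98. For 7S and 7SK RNA they were -1.27 to 0.67 (Rn7s1), -0.96 to 1.82 (Rn7s2), -1.75 to 0.96 (Rn7s6) and -0.10 to 0.26 (Rn7sk). For proteins and hosts they were -0.09 to 0.021 (Atg16l1), -0.090 to 0.11 (Cep295), -0.060 to 0.14 (Gar1), -0.10 to 0.032 (Ipo7), -0.11 to 0.036 (Nop56), -0.17 to 0.038 (Nop58), -0.071 to 0.063 (Snu13), -0.0017 to 0.13 (Snx5), -0.041 to 0.097 (Srcap) and -0.045 to 0.071 (Tpt1). Other ranges kept their sign but were wide: -0.93 to -0.23 for Snord43 (nearest 0 without KO4), -0.53 to -0.085 for Snord104 and -0.66 to -0.059 for Snora31 (both nearest 0 without WT3), -1.59 to -0.70 for Snhg10 (nearest 0 without KO5), -0.79 to -0.23 for Wdr77 (nearest 0 without KO3) and -0.6956 to -0.21 for Znhit6.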
